A study of Mus musculus with 8 samples.

Results

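The genes described here are 38 genes of the integrated stress response and of protein folding in the endoplasmic reticulum (ER), measured by RNA sequencing in whole neonatal liver. They were picked by function and matched by symbol, in GENCODE M21 (GRCm38), to rows of a count table of 48440 genes. All 38 had a row, and 37 passed the filter on low counts. Chac1 did not. Within them, 17 are targets of the transcription factor ATF4, 14 are chaperones and folding enzymes of the ER lumen or membrane, 3 are sensors or signal carriers of the unfolded protein response (Atf6, Ern1 and Xbp1), 3 serve ER-associated degradation, and the last is Atf4 itself. The livers came from 4 CD1 pups with a germline deletion of Myo5b (animals 275 to 278) and from 4 control littermates (animals 279 to 282), which the labels give as heterozygous or wildtype without saying which pup is which. Myo5b encodes a motor protein of apical recycling endosomes. The deletion is germline, so every tissue of the pup carries it, and the pups were 3 to 8 days old, with no age given for a single pup. Each label names its own animal, and each library was counted as 1 sample.

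Cells sense trouble in protein folding through ER membrane proteins. IRE1-alpha (Ern1) splices the messenger of the transcription factor XBP1, ATF6 is cut to release a transcription factor, and PERK (Eif2ak3) phosphorylates the translation factor eIF2. ATF6 and XBP1 raise genes of chaperones and of ER-associated degradation. Phosphorylated eIF2, which kinases sensing amino acid shortage, heme shortage or viral RNA can also produce, slows translation in general but favours translation of ATF4, and ATF4 raises genes of amino acid supply, serine and folate metabolism and stress feedback. Hepatocytes secrete most plasma proteins and carry a large ER load. Splicing of Xbp1, cleavage of ATF6, phosphorylation of eIF2 and ATF4 protein are not seen in counts per gene, which measure messenger abundance.

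Library totals ran from 14228268 to 18398039 counts. Myo5b was 49.3 ± 7.06 CPM (read counts scaled to a common library size, with TMM factors) in knockout and 133 ± 33.1 CPM in control livers (SD, n = 4; log2 fold change -1.43, SE 0.18, adjusted p = 3.14e-04 in edgeR's quasi-likelihood test). That test called 3782 of 18274 genes at an adjusted p under 0.05, or 20.7%, with 9.27% higher and 11.4% lower in knockout livers, and the median log2 fold change of all genes tested was 0.0093. Hepatocyte markers were abundant in all 8 libraries, with 1 of 8 higher and 3 lower (summed level 71802 to 86378 CPM in knockouts, 97493 to 123810 CPM in controls). All 25 erythroid markers fell (summed level 2587 to 5078 CPM in knockouts, 10070 to 13126 CPM in controls), all 16 proliferation genes fell (916 to 1296 CPM against 2299 to 2947 CPM; Mki67 549.5 ± 109 against 1474 ± 196, SD, n = 4), and 13 of 15 macrophage markers rose (1931 to 2213 CPM against 1102 to 1302 CPM). Of plasma and B cell markers 3 rose and 1 fell, of neutrophil markers 1 fell, and of stellate markers 2 rose and 2 fell. No marker of these lists had 0 counts in all libraries. In whole tissue, fewer cells of a type and less RNA per cell cannot be told apart. Reads of Y-linked genes were abundant in knockout 277 and controls 279 and 281 (3643 to 4527 counts) and nearly absent from the other 5 libraries (0 to 8 counts). Knockouts 277 and 278 stood apart from the other knockouts in the genes described here, in different ways. The counts of ATF4 targets and chaperones are therefore given with and without them.

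Among the 37 tested members, 5 rose and 5 fell, or 27.0%, beside 20.7% of all genes tested. Groups did not overlap for 6 members higher and 6 lower in knockouts, beside 10.8% and 12.8% of all genes. The 5 that rose were Atf6, Ern1, Xbp1, Dnajc3 and Nupr1, and the 5 that fell were Ppp1r15a, Shmt2, Slc7a5, Mthfd2 and Edem1. The sensors of the unfolded protein response thus rose, while 13 of the 14 chaperones did not pass the test, and ATF4 targets changed in both directions. The median log2 fold change of the 37 was 0.023. With erythroid marker expression as a covariate, all 10 lost their call (adjusted p of 0.110 or more), Slc7a5 turned from -1.01 to 0.41, and Ddit3 passed (2.35, adjusted p = 0.0486). In that fit Atf6 was at 0.85 (SE 0.26, adjusted p = 0.285), Shmt2 at -1.01 (SE 0.32, adjusted p = 0.331) and Dnajc3 at 0.091 (SE 0.26, adjusted p = 0.970). Nupr1 went from 1.73 to 3.19 (SE 0.74, adjusted p = 0.110), Ern1 from 0.60 to 1.0 (SE 0.32, adjusted p = 0.315) and Edem1 from -0.37 to -0.64 (SE 0.27, adjusted p = 0.514). That covariate correlated with genotype at -0.94 across the 8 libraries and widened the variance of the genotype term 9.25-fold, so erythroid level and genotype can hardly be told apart here.

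**Figure D1:**
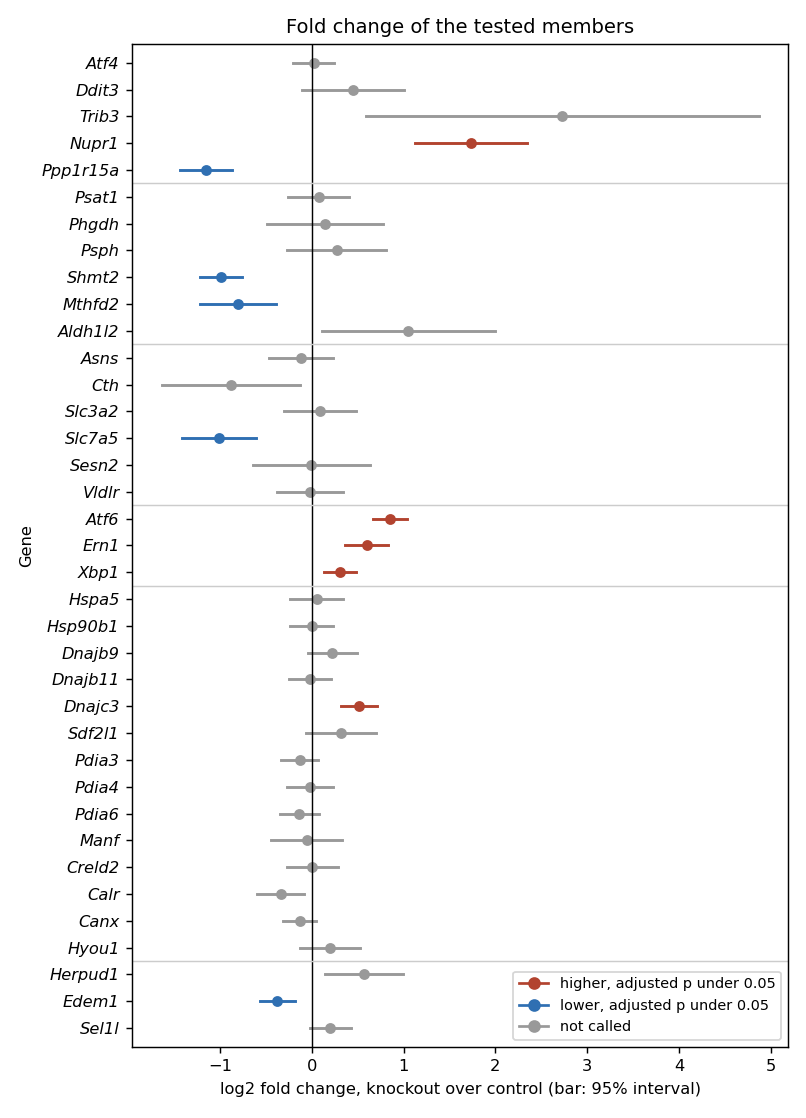
Log2 fold change of the 37 tested members (x axis, knockout over control) with its 95% interval, ordered by role with a grey line between roles. Red marks the 5 genes called higher and blue the 5 called lower at an adjusted p under 0.05, and the wide bar of Trib3 spans 0.59 to 4.87.

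The 3 genes at the head of the unfolded protein response rose together. Atf6, the ER-membrane transcription factor (chromosome 1, 170704674 to 170867771), was at 100.4, 106, 91.0 and 102 CPM in knockouts 275 to 278 and at 51.4, 59.5, 58.5 and 52.2 CPM in controls 279 to 282. The lowest knockout lay well above the highest control. Its mean was 1.80-fold higher (log2 fold change 0.85, SE 0.09, adjusted p = 4.42e-06). Ern1, the gene of the kinase and endonuclease IRE1-alpha (chromosome 11, 106394650 to 106487852), was at 81.0, 81.8, 68.7 and 82.7 CPM in knockouts and 46.3, 43.9, 55.4 and 61.7 CPM in controls, a 1.52-fold rise (log2 fold change 0.60, SE 0.11, adjusted p = 8.66e-04). Xbp1, whose spliced form encodes an activator of chaperone and secretory genes (chromosome 11, 5520659 to 5525893), was at 180.1, 168, 178 and 159 CPM against 157, 134, 129.7 and 134 CPM. Every knockout lay above every control, with knockout 278 and control 279 close together. The rise of Xbp1 was 1.23-fold (log2 fold change 0.30, SE 0.08, adjusted p = 0.0147), and its call was lost without control 281 (0.27, adjusted p = 0.0512; 0.00347 to 0.941 over all alternatives).

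All 3 genes had knockout values wholly above control values, which held for 10.8% of all genes tested. The calls of Atf6 and Ern1 held when any single library was left out, and all 3 held without knockouts 277 and 278 together and without knockout 278 and control 282 together. Markers of macrophages rose in the same livers, 13 of 15, and their part in these changes was not tested. Per kilobase of exon, Xbp1 (42.8 CPM per kb in controls) was the most abundant of the 3, above Ern1 (6.34) and Atf6 (6.0).

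**Figure D2:**
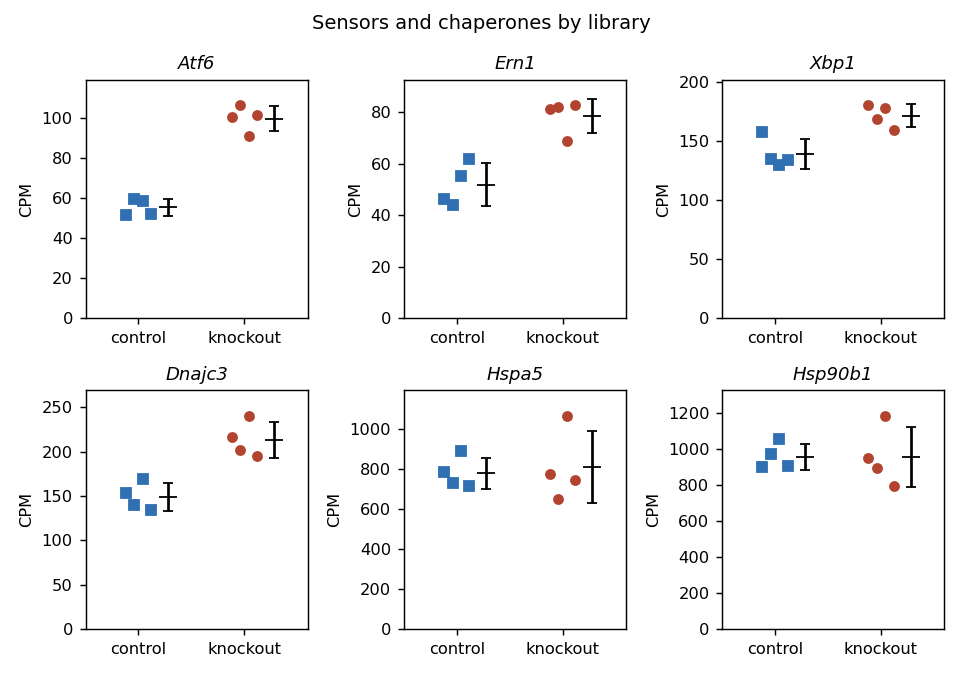
CPM (y axis, from 0) of the sensor genes Atf6 and Ern1, of Xbp1 and of the chaperones Dnajc3, Hspa5 and Hsp90b1 in each control (blue squares) and knockout (red circles) liver. The bar beside each group is its mean and SD. The top row and Dnajc3 show groups that do not overlap, whereas those of Hspa5 and Hsp90b1 do, with knockout 277 highest.

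The chaperones and folding enzymes differed little between the groups. Of 14 genes, 1 rose and 0 fell in edgeR's quasi-likelihood test (7.14%, beside 20.7% of all genes called). At an unadjusted p under 0.05, 1 was lower (Calr). DESeq2 and limma-voom each called 1 higher and 1 lower. The median log2 fold change was -0.0097, and it was 0.022 with upper-quartile scaling and 0.059 with library size alone. The 14 genes together took 4073 to 5872 CPM in knockouts and 4777 to 5123 CPM in controls. The log2 fold changes ran from -0.34 to 0.51. The exception that rose was Dnajc3, a co-chaperone of BiP that also binds and inhibits eIF2 kinases (chromosome 14, 118937976 to 118981697). It was at 217, 201, 240.1 and 194 CPM in knockouts and 154, 139.8, 169 and 134 CPM in controls, with every knockout above every control (1.43-fold, log2 fold change 0.51, SE 0.09, adjusted p = 7.76e-04).

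Hspa5 encodes BiP, the main Hsp70 chaperone of the ER and a standard readout of ER stress (chromosome 2, 34771970 to 34777547). It was at 775, 649.6, 1066 and 746 CPM in knockouts and 785, 729, 889 and 714 CPM in controls. The groups overlapped, and knockout 277 was higher than every other liver. The log2 fold change was 0.05, with a 95% interval of -0.23 to 0.34 (adjusted p = 0.822). Hsp90b1, the ER Hsp90 (GRP94), had means of 957 ± 166 and 958 ± 72.1 CPM (SD, n = 4; interval -0.23 to 0.23); 415 bases of its exons overlap a gene on the opposite strand.

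Calr, the lectin chaperone calreticulin that holds ER calcium (chromosome 8, 84841850 to 84846934), was at 668, 700.3, 956 and 595 CPM in knockouts and 978, 921, 856 and 936 CPM in controls. Knockouts 275, 276 and 278 lay below all controls, and knockout 277 lay among them. Its log2 fold change of -0.34 (SE 0.12) did not pass the test (adjusted p = 0.0593), but did without knockout 277 (-0.50, adjusted p = 0.00129), with no low-count filter, in DESeq2 and in limma-voom (adjusted p from 0.00115 to 0.354 over all alternatives). Its membrane-bound partner Canx (calnexin) had a log2 fold change of -0.13, with an interval of -0.31 to 0.05. Dnajb9, an Hsp40 co-chaperone that restrains IRE1, was at 31.8, 38.8, 50.6 and 35.0 CPM in knockouts against 33.7, 33.9, 32.4 and 33.8 CPM in controls. Controls were tightly grouped, knockout 277 was highest, and the difference did not pass the test (adjusted p = 0.241).

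The remaining 8 chaperone genes had log2 fold changes between -0.14 and 0.32, and none passed the test. Those of the disulfide isomerases were -0.13 (Pdia3), -0.02 (Pdia4) and -0.14 (Pdia6). Hyou1, the nucleotide exchange factor of BiP (0.20), and Sdf2l1, which works with the BiP co-chaperone Dnajb11 (0.32), had values above 0. Dnajb11 (-0.02), the secreted stress protein gene Manf (-0.05) and the folding factor Creld2 (0.0079) lay within 0.1 of 0. The exons of Manf share 166 bases with a gene on the opposite strand. In controls the most abundant chaperones per kilobase of exon were Calr (320.4 CPM per kb), Hsp90b1 (238), Hspa5 (184), Pdia4 (166), Pdia3 (154) and Canx (142), and the least abundant was Sdf2l1 (7.72).

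Promoters of 7 chaperones hold a sequence element of the same stress pathway. The genes were picked by function as members of that pathway, so finding the element there is no independent result. RefSeq windows of 300 bases (GRCm38.p6, from 250 bases before to 50 after a gene's start) were at hand for 32 members, of which 12 were chaperones, and not for Aldh1l2, Cth, Slc7a5, Atf6, Manf and Hyou1. The ER stress element, through which ATF6 and XBP1 act with the factor NF-Y, was searched on both strands as CCAAT and CCACG parted by 9 bases. It was found in 7 of the 12 chaperone windows, in 0 of 14 windows of ATF4-target genes, and in 37 of all 27025 genes with a window (0.137%). The matches are printed below with 6 flanking bases, on the strand that carries the motif, with CCAAT and CCACG in capitals, because they show the spacing these promoters have in common. They lie on GRCm38.p6 at chr8:84847069-84847099 (Calr, + strand), chr11:50325794-50325824 (Canx, -), chr15:88819514-88819544 (Creld2, -), chr14:118937821-118937851 (Dnajc3, +), chr10:86705527-86705557 and chr10:86705632-86705662 (Hsp90b1, + and -), chr2:34772019-34772049 (Hspa5, +) and chr12:17266485-17266515 (Pdia6, +).
Calr: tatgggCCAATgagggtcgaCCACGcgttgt
Canx: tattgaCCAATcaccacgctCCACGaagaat
Creld2: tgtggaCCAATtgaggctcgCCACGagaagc
Dnajc3: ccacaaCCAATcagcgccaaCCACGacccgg
Hsp90b1, + strand: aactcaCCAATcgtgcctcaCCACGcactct
Hsp90b1, - strand: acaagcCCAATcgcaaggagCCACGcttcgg
Hspa5: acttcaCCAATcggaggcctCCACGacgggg
Pdia6: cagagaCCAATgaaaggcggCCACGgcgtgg

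Of these 7 genes, Dnajc3 rose and the other 6 did not pass the test, with log2 fold changes from -0.34 (Calr) to 0.05 (Hspa5). The window of Hspa5 is shown whole because that gene is the usual reporter of the pathway, with the matched element in capitals (GRCm38.p6, chr2:34771840-34772139, + strand). The match starts 65 bases before the start that RefSeq gives, and it lies inside the gene's span as GENCODE M21 places it, which begins further upstream.
Hspa5: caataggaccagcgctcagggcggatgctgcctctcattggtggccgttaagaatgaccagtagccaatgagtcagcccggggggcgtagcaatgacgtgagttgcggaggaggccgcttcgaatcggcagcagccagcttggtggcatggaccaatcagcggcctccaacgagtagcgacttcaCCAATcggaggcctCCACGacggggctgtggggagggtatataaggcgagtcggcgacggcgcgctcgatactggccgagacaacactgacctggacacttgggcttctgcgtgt

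A related element, ATTGG and CCACG parted by 1 base, was present in 12 of 27025 genes (0.0444%). Among the members it was found in Herpud1 and Dnajb11. The 8-base motif TGACGTGG, bound by XBP1 and ATF6 in other settings, was found in 0 of 32 member windows and in 0.714% of all genes.

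The 3 genes of ER-associated degradation, which returns misfolded proteins to the cytosol for destruction, did not move as 1 group. Edem1, a lectin that hands misfolded glycoproteins to the exit machinery (chromosome 6, 108828641 to 108859356), was at 76.5, 90.3, 101 and 82.3 CPM in knockouts and 114, 121, 113 and 106 CPM in controls, with all knockouts below all controls. It fell 1.3-fold (log2 fold change -0.37, SE 0.09, adjusted p = 0.00813). Herpud1, a stress-induced organiser of that machinery (chromosome 8, 94386438 to 94395377), was at 149, 149, 208 and 214 CPM against 116, 158, 91.6 and 119 CPM. Knockouts 277 and 278 exceeded all controls, whereas knockouts 275 and 276 lay below control 280. Its log2 fold change of 0.57 did not pass the test (adjusted p = 0.0620), but passed without control 280 (0.72, adjusted p = 0.0100), with upper-quartile scaling or library size alone, with no low-count filter, in DESeq2 and in limma-voom. Without knockouts 277 and 278 it was 0.29 (adjusted p = 0.330), and over all alternatives its adjusted p ran from 9.21e-07 to 0.857. Sel1l, the scaffold of the ubiquitin ligase complex (chromosome 12, 91806043 to 91849157), was at 379.9, 421, 544 and 460.5 CPM against 409, 429, 352 and 377 CPM, with overlapping groups (log2 fold change 0.20, adjusted p = 0.193).

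The messenger of ATF4 did not differ detectably. Atf4 (chromosome 15, 80255184 to 80257541) was at 118, 119.8, 127 and 166 CPM in knockouts and 146, 128, 126 and 122 CPM in controls. The groups overlapped and knockout 278 was highest. Its log2 fold change was 0.02 with an interval of -0.20 to 0.25 (adjusted p = 0.911). ATF4 output is set largely by translation, so its messenger alone does not report its activity. Ddit3, which encodes the stress transcription factor CHOP (chromosome 10, 127290774 to 127296288), was at 10.7, 13.7, 10.3 and 23.7 CPM against 10, 8.04, 12.5 and 12.1 CPM, again with knockout 278 highest, and did not pass the test (log2 fold change 0.45, adjusted p = 0.249).

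Among the stress regulators under ATF4, 2 were higher and 1 was lower in every knockout than in any control. Of all genes tested, 10.8% were likewise higher and 12.8% lower in every knockout than in any control. Trib3, a pseudokinase that feeds back on ATF4 and CHOP and on insulin signalling (chromosome 2, 152337422 to 152344032), was at 11.8, 17, 10.6 and 87.6 CPM in knockouts and 6.88, 5.43, 3.38 and 3.44 CPM in controls. Knockout 278 stood far above the other knockouts. Trib3 had the largest difference of the 37 (log2 fold change 2.73, SE 0.88), but with that spread did not pass the test (adjusted p = 0.0819). It passed without knockout 278, at 1.45 (SE 0.26, adjusted p = 6.0e-04), and in limma-voom (1.96, adjusted p = 0.0436). DESeq2 gave no p for Trib3 (log2 fold change 2.73), and over the other alternatives its adjusted p ran from 6.0e-04 to 0.188. Nupr1, a small stress-induced chromatin protein (chromosome 7, 126623249 to 126630861), rose from 2.34 ± 0.718 to 7.78 ± 2.46 CPM (SD, n = 4), at 6.26, 9.91, 5.11 and 9.83 CPM in knockouts and 1.75, 2.28, 1.96 and 3.37 CPM in controls (log2 fold change 1.73, SE 0.29, adjusted p = 3.71e-04).

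Ppp1r15a went the other way. It encodes GADD34, the inducible subunit that directs a phosphatase to eIF2 and so ends the response (chromosome 7, 45522916 to 45526268). It was at 50.2, 51.1, 51.2 and 73.2 CPM in knockouts against 143, 116, 106 and 136 CPM in controls, a 2.22-fold fall (log2 fold change -1.15, SE 0.13, adjusted p = 3.35e-05). Knockouts 275 to 277 were nearly equal and knockout 278 was higher, yet all lay below the controls. With the erythroid covariate, which can hardly be told apart from genotype, the difference was -0.14 (adjusted p = 0.953). Chac1, a glutathione-degrading enzyme and sensitive CHOP target, was too low to test. It had 0, 4, 0 and 37 counts in knockouts 275 to 278 and 1, 2, 6 and 2 counts in controls 279 to 282. The 0 counts of knockouts 275 and 277 allow up to 0.174 and 0.158 CPM (3 counts each, counting error only), and knockout 278 was at 2.25 CPM.

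**Figure D3:**
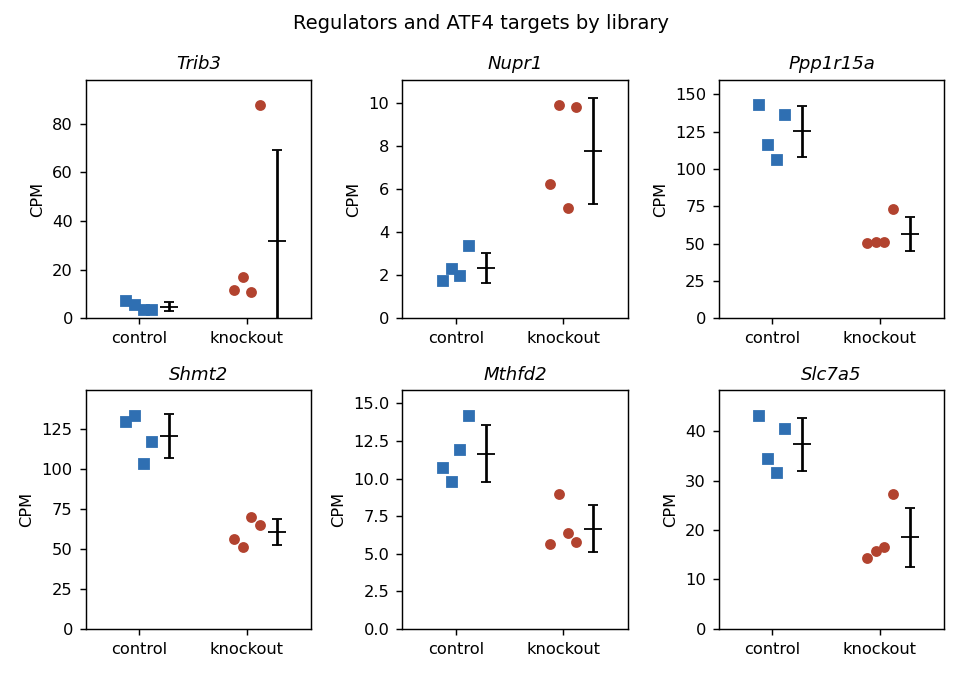
CPM (y axis, from 0) of Trib3, Nupr1, Ppp1r15a, Shmt2, Mthfd2 and Slc7a5 in each control (blue squares) and knockout (red circles) liver, with the group mean and SD beside the points (the SD bar of Trib3 is cut at 0). None of the 6 pairs of groups overlap, and the single high point of Trib3 is knockout 278.

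Of the members in serine and mitochondrial folate metabolism, Shmt2 and Mthfd2 fell and the other 4 did not pass the test. Shmt2, which moves a carbon unit from serine to folate in mitochondria (chromosome 10, 127517123 to 127522444), was at 56.4, 51.5, 69.9 and 64.7 CPM in knockouts and 129, 133, 103 and 117 CPM in controls, a 1.99-fold fall with no overlap (log2 fold change -0.99, SE 0.11, adjusted p = 7.11e-06). Mthfd2, the next enzyme of that pathway and one that is high in dividing cells (chromosome 6, 83305691 to 83325908), was at 5.63, 8.95, 6.37 and 5.77 CPM against 10.7, 9.79, 11.9 and 14.2 CPM. It fell 1.74-fold (log2 fold change -0.80, SE 0.20, adjusted p = 0.00707), a call lost without knockout 278 and control 282 together (-0.63, adjusted p = 0.0542) and without knockouts 277 and 278 together (-0.69, adjusted p = 0.0665).

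Aldh1l2, which oxidises the folate unit in mitochondria (chromosome 10, 83487450 to 83534140), was at 1.91, 2.62, 3.84 and 1.21 CPM in knockouts and 0.909, 0.872, 0.831 and 2.03 CPM in controls. Control 282 overlapped the knockouts, and the other controls lay below all of them. The log2 fold change of 1.05 did not pass the test (adjusted p = 0.109), and passed without control 282 (1.46, adjusted p = 0.0416). Over all alternatives its adjusted p ran from 0.0156 to 0.988. Its exons share 1056 bases with a gene on the opposite strand, and the counting's strand setting is not given in the sources used here.

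The 3 enzymes that make serine from a glycolytic intermediate did not pass the test. Phgdh, the first step, was at 3.42 ± 0.881 and 3.10 ± 0.839 CPM (SD, n = 4; log2 fold change 0.14, interval -0.49 to 0.77). Psat1 was at 29.4 ± 8.15 and 27.9 ± 1.46 CPM (0.08, interval -0.25 to 0.41), and Psph at 8.28 ± 2.76 and 6.87 ± 1.71 CPM (0.27, interval -0.27 to 0.81). The exons of Psph share 452 bases with Cct6a on the opposite strand. Of the 6 genes together 0 rose and 2 fell in edgeR (33.3%, beside 20.7% of all genes called). At an unadjusted p under 0.05, 1 was higher (Aldh1l2), and DESeq2 and limma-voom called 0 higher. Proliferation genes, all 16 of which fell in the same livers, moved with Shmt2 and Mthfd2, and their part in these changes was not tested.

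Amino acid transport and synthesis genes fell or did not pass the test. Slc7a5, the light chain of the leucine transporter LAT1 (chromosome 8, 121881150 to 121907694), was at 14.4, 15.8, 16.5 and 27.3 CPM in knockouts and 43.1, 34.3, 31.5 and 40.5 CPM in controls. Every knockout lay below every control, and knockout 278 was the highest knockout. It fell 2.01-fold (log2 fold change -1.01, SE 0.19, adjusted p = 0.00174). Its heavy chain Slc3a2 (chromosome 19, 8706882 to 8723369) was at 52.1, 55.6, 59.4 and 87.1 CPM against 74.2, 53.2, 49.4 and 61.4 CPM, with overlapping groups (log2 fold change 0.09, interval -0.30 to 0.49, adjusted p = 0.767). Levels of all 25 erythroid markers were lower too, and their part in the fall of Slc7a5 was not tested. With the erythroid covariate Slc7a5 turned in direction (0.41, adjusted p = 0.851), in a fit where 12 of 37 members did so. That covariate can hardly be told apart from genotype.

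Cth, cystathionine gamma-lyase, which makes cysteine from the methionine route (chromosome 3, 157894248 to 157925077), was at 75.0, 40.2, 69.0 and 118 CPM in knockouts and 132, 162, 140.3 and 121 CPM in controls. The groups did not overlap, although knockout 278 came within a few CPM of control 282. Its log2 fold change of -0.88 (SE 0.31) did not pass the test (adjusted p = 0.102). It passed without knockout 278 (-1.18, adjusted p = 0.00803), without knockout 276 (-0.68, adjusted p = 0.0391), in DESeq2 (adjusted p = 0.0287) and in limma-voom (adjusted p = 0.00283), and over all alternatives its adjusted p ran from 0.00283 to 0.988. Asns, asparagine synthetase and the classical reporter of amino acid shortage (chromosome 6, 7675169 to 7693254), was at 32.8, 27.2, 38 and 52.2 CPM against 36.9, 42.4, 44.2 and 39.8 CPM. Knockouts 275 and 276 lay below the controls and knockout 278 above them, and the difference did not pass the test (log2 fold change -0.12, interval -0.47 to 0.23, adjusted p = 0.667).

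Sesn2, an inhibitor of mTORC1 under amino acid or energy stress (-0.0034, interval -0.64 to 0.63), and Vldlr, a lipoprotein receptor raised by ATF4 in ER stress (-0.02, interval -0.38 to 0.34), had log2 fold changes near 0. For Sesn2 the knockouts ranged from 10.9 CPM in knockout 276 to 30.5 CPM in knockout 278, around controls of 15.1 to 22.9 CPM. Per kilobase of exon, the most abundant ATF4 targets in controls were Cth (49.7 CPM per kb), Ppp1r15a (42.6) and Shmt2 (38.8), below the level of Atf4 itself (55.3).

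The motif by which ATF4 and its partners act was searched as TGATGNAA, where N is any base, on both strands. It was found in 5 of 14 windows of ATF4 targets (Asns, Chac1, Nupr1, Trib3 and Vldlr), in 0 of 12 windows of chaperones and in 4.51% of all 27025 genes. Herpud1 held it too. The targets were listed as such by function, so matches among them are no independent result. The matches are shown with 10 flanking bases on the strand that carries the motif, with the motif in capitals, since the genes that hold it include the 2 stress regulators that were high in every knockout. They lie on GRCm38.p6 at chr6:7693215-7693242 (Asns, - strand), chr2:119351039-119351066 (Chac1, -), chr8:94386307-94386334 (Herpud1, -), chr7:126625563-126625590 (Nupr1, +), chr2:152344029-152344056 (Trib3, +) and chr19:27216810-27216837 (Vldlr, -).
Asns: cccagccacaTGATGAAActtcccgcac
Chac1: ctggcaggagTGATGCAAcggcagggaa
Herpud1: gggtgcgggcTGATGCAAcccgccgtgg
Nupr1: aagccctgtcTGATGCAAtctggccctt
Trib3: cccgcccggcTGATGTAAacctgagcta
Vldlr: ctaggagcgcTGATGCAActattgctgc

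The genes with the motif did not share a direction. Nupr1 rose, Trib3 was higher in all knockouts without passing the test, and Asns and Vldlr lay near 0, while Ppp1r15a, Shmt2 and Mthfd2, which fell, held no match in their windows. A match in this short window says nothing about binding in these livers.

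Set side by side, ATF4 targets and chaperones had nearly the same average change but a different spread. Of 16 tested ATF4 targets, 1 rose and 4 fell (31.2%), with a median log2 fold change of 0.037 and a range from -1.15 to 2.73. Of 14 chaperones, 1 rose (7.14%), with a median of -0.0097 and a range from -0.34 to 0.51. Over all genes tested 20.7% were called. The number of ATF4 targets that rose was 2 without knockout 278, 2 without control 282, 3 without both, and 2 without knockouts 277 and 278, and 4 or 5 fell in each of these. The number of chaperones that fell was 1 without knockout 277 and 1 without knockouts 277 and 278.

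The mean log2 CPM of the tested ATF4 targets was 4.17 ± 0.27 in knockouts and 4.14 ± 0.03 in controls (SD, n = 4). That of chaperones was 7.4 ± 0.22 and 7.38 ± 0.07. The ATF4-target level minus the chaperone level was 0.0051 log2 units higher in knockouts than in controls. That shift was far below the SD of 0.37 among knockouts, and its sign was not stable. It was -0.18 without knockout 278, -0.045 without control 281, and -0.37 when medians replaced means. No test was made on these averages, since the genes were chosen with earlier results known.

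The wide spread among knockouts came from different animals for the 2 groups of genes. The 4 control livers lay within 4.10 to 4.17 for ATF4 targets, whereas knockouts 275 to 278 were at 3.98, 3.95, 4.20 and 4.54. For chaperones the knockouts were at 7.38, 7.29, 7.72 and 7.23, and the controls at 7.33 to 7.49. Knockout 278 thus had the highest ATF4-target level and the lowest chaperone level of the 8 livers, and knockout 277 had the highest chaperone level.

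**Figure D4:**
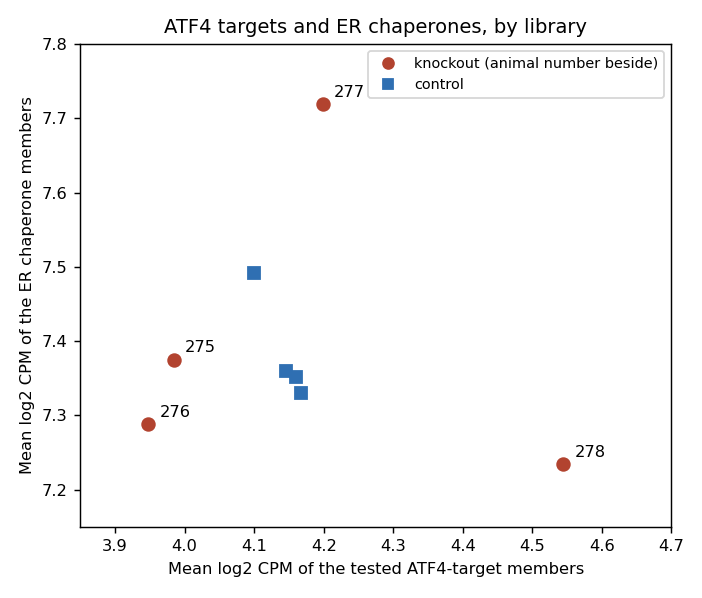
Mean log2 CPM of the 16 tested ATF4-target members (x axis) against that of the 14 ER chaperones (y axis) in each liver. The controls (blue squares) lie close together, knockout 278 lies alone at the right (4.54) and knockout 277 alone at the top (7.72).

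The same pattern held gene by gene. Knockout 277 was the highest of the 4 knockouts for 13 of 14 chaperones, beside 23.0% of all genes tested. Among controls, control 281 was the highest for 9 of 14 chaperones, beside 24.7% of all genes. Knockout 278 was the highest knockout for 9 of 17 ATF4 targets, beside 28.8% of all genes. It was the highest for 0 of the 14 chaperones and the lowest for 8 of them, beside 26.6% of all genes for the lowest. The ATF4 targets highest in knockout 278 included Trib3, Chac1, Ddit3, Asns, Cth, Slc3a2, Slc7a5, Sesn2 and Ppp1r15a, with Atf4 itself highest there too. The serine enzymes Psat1, Phgdh and Psph, along with Shmt2, Aldh1l2 and Vldlr, were instead highest in knockout 277.

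**Figure D5:**
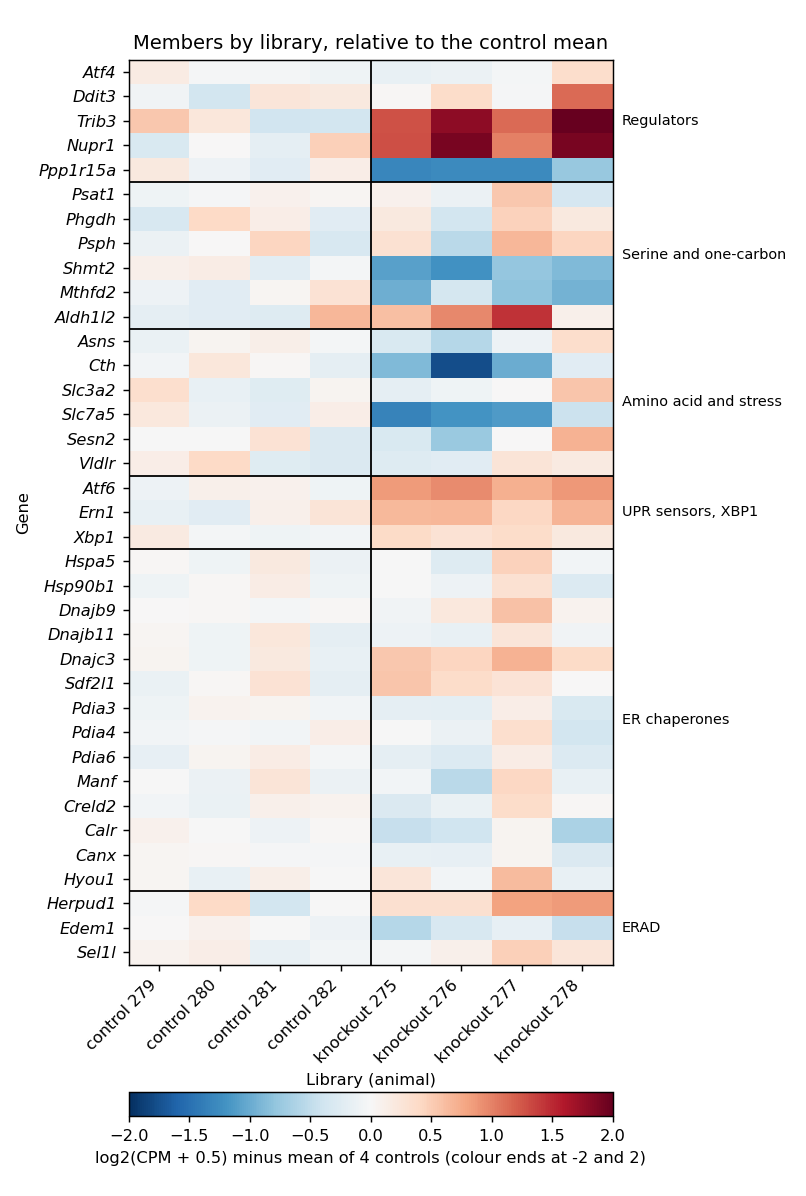
Level of each tested member in each liver, as log2(CPM + 0.5) minus the mean of the 4 controls (colour, red higher and blue lower, ending at -2 and 2). Columns are libraries and rows genes by role. The sensors are red in all 4 knockouts, the chaperones are red mainly in knockout 277, and Atf4, Ddit3, Trib3, Asns, Slc3a2 and Sesn2 are reddest in knockout 278.

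Other genes of the same pathways showed both patterns. Knockout 277 was the highest knockout for 34 of 38 other genes of ER folding and translocation, beside 23.0% of all genes. Control 282 was the lowest control for 21 of the 38, beside 25.1% of all genes. Knockout 278 was the highest for 13 of 25 other ATF4 and CHOP targets, beside 28.8% of all genes. It was also the highest for 14 of 20 cytosolic aminoacyl-tRNA synthetases, a class that ATF4 raises. Knockout 277 was the only knockout with abundant Y-linked reads, so Y-linked expression and that animal cannot be told apart among the knockouts. With Y-linked expression as a covariate no member gained or lost its genotype call. That fit does not address differences among the knockouts. Knockout 278 had the highest erythroid level (mean log2 CPM 6.18, against 5.18 to 5.62 in the other knockouts) and the highest proliferation level of the knockouts (5.07, against 4.75 to 4.80). The part of either in the pattern was not tested.

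Upstream of ATF4, the eIF2 kinase genes Eif2ak3 and Eif2ak1 changed in opposite directions. Of 13 genes of eIF2 kinases, phosphatase subunits and eIF2B, 2 rose and 2 fell (30.8%, beside 20.7% of all genes called). Eif2ak3, the gene of the ER sensor PERK, was at 48.7, 53.2, 63.1 and 39.1 CPM in knockouts and 35.1, 34.5, 33.4 and 40.3 CPM in controls (log2 fold change 0.51, SE 0.13, adjusted p = 0.00850), with knockout 278 below control 282. Eif2ak1, the heme-regulated kinase that is abundant in red cell precursors, fell from 90.0 ± 7.95 to 52.0 ± 8.55 CPM (SD, n = 4; log2 fold change -0.79, SE 0.11, adjusted p = 7.77e-05). The erythroid markers moved with it, and their part in this fall was not tested. Ppp1r15b, the constitutive counterpart of Ppp1r15a in eIF2 dephosphorylation, fell as well (log2 fold change -0.28, SE 0.08, adjusted p = 0.0199). Leaving out knockout 275, knockout 277 or control 281 left 1 called higher, and leaving out knockout 275, knockout 276 or control 279 left 1 called lower.

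Other targets of ATF4 and CHOP also changed in both directions. Of 23 tested, 6 rose and 2 fell (34.8%, beside 20.7% of all genes called), with a median log2 fold change of 0.13. Igfbp1, a binding protein of insulin-like growth factors that fasting also raises, was at 5267, 5610.0, 5581 and 4614 CPM in knockouts and 698, 737, 899.7 and 763 CPM in controls (log2 fold change 2.77, SE 0.10, adjusted p = 7.01e-11), and there knockout 278 was the lowest knockout. Cebpg, a dimer partner of ATF4, rose by 0.52 log2 units (SE 0.09), and the glycine transporter gene Slc6a9 fell by 1.33 log2 units (SE 0.22).

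Genes of serine, glycine and folate use beyond the members were mostly lower. Of 20 genes, 15 fell (75.0%, beside 20.7% of all genes called) and 0 rose in edgeR, in DESeq2 and in limma-voom, with 1 higher at an unadjusted p under 0.05, and the median log2 fold change was -0.67. Amt (log2 fold change -1.20, SE 0.11), a part of the glycine cleavage system, and the folate-linked dehydrogenases Dmgdh (-0.87, SE 0.10) and Sardh (-0.98, SE 0.12) had the smallest p-values. With the erythroid covariate 0 of the 20 fell, but only 17 of all genes tested were lower in that fit. It can hardly tell erythroid level from genotype. All 25 erythroid markers, all 16 proliferation genes and 3 of 8 hepatocyte markers fell in these livers too. Their part in the fall of this list was not tested. Tyms belongs both to this list and to the proliferation genes.

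Most genes of the wider ER machinery did not pass the test. Of 38 other genes of folding and translocation, 2 fell and 0 rose in edgeR (5.26%, beside 20.7% of all genes called), with a median of -0.080. At an unadjusted p under 0.05, 3 were higher, and DESeq2 and limma-voom each called 1 higher. Without knockout 277, 7 fell and 0 rose, without knockout 278, 1 fell and 2 rose, and 1 fell without knockout 275, knockout 276, control 280 or control 281. Pdia5, a disulfide isomerase, fell by 0.33 log2 units (SE 0.08) and Ppib, an ER prolyl isomerase, by 0.37 (SE 0.11). Ssr1, a subunit of the translocon-associated complex, was at 141 ± 18.1 and 169 ± 8.40 CPM (SD, n = 4; adjusted p = 0.0517).

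Of 17 tested other genes of ER-associated degradation, 2 rose and 2 fell (23.5%), near the 20.7% of all genes called. Without knockout 277 or control 279, 1 was higher. Derl2, a channel component, fell from 39.0 ± 2.33 to 23.8 ± 1.75 CPM (SD, n = 4; log2 fold change -0.71, SE 0.11, adjusted p = 1.3e-04), and the ubiquitin ligase gene Rnf139 fell by 0.47 log2 units (SE 0.12). Os9, a lectin that works with Sel1l, rose by 0.58 log2 units (SE 0.12), although knockout 278 (243 CPM) lay below control 280 (244 CPM). Among 10 other transducers of ER stress, 2 rose and 0 fell (20%), again near the share of all genes called. Creb3, an ER-bound relative of ATF6, was at 36.0, 41.4, 44.7 and 37.6 CPM in knockouts and 13.8, 23.1, 23.7 and 19.4 CPM in controls (log2 fold change 1.0, SE 0.15, adjusted p = 1.60e-04). Bcl2l11, a pro-death gene that CHOP can raise, rose by 0.69 log2 units (SE 0.17), and the liver transducer gene Creb3l3 was at 310.4 ± 42.3 and 261 ± 32.9 CPM (SD, n = 4; adjusted p = 0.118).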

How the data were processed

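RNA from 8 whole livers was sequenced, per the labels' protocols. The authors deposited raw read counts per Ensembl gene, made with Rsubread 2.20.0 in R 4.4.1 on a build written GRMm38 (read here as GRCm38), per the labels' protocols, featureCounts being named in the submitters' processing notes. The sources used here do not give annotation, strand setting or treatment of multi-mapped reads, so genes with close copies or overlapping exons are uncertain.

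The test was edgeR 4.0.16 in R 4.3.3, with limma 3.58.1: filterByExpr (minimum count 10, minimum total 15), TMM, robust quasi-likelihood F-test of genotype, Benjamini-Hochberg adjustment over all 18274 genes, threshold 0.05. The SE is the log2 fold change divided by the square root of F, and 95% intervals use the test's degrees of freedom. Log2 CPM use a prior count of 2. Replicate pairs differed by more than sampling noise (chi-square per degree of freedom 12.9 to 24.0).

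The members and lists were chosen with earlier results of these data known. Named genes are Atf4, Ddit3, Hspa5 and Xbp1, in each role the 3 smallest p-values and the largest change in each direction, and in each other list the 3 smallest p-values. Further genes were named after their values were seen. Alternatives were 3 other scalings, 2 other filters, DESeq2 1.42.0, limma-voom with quality weights, erythroid and Y-linked covariates, each library left out, and pairs of libraries left out (added after seeing the data). Protein sequences were not used here. Figures were drawn with matplotlib 3.10.9.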

Additional observations from a re-analysis of the deposited data

Results flagged for a closer look

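In 8 of 76 groups of 4 livers (each of the 38 genes in knockouts and in controls), the highest or lowest liver lay so far from the rest that its gap to the nearest, over the group's range, exceeded Dixon's critical value of 0.829. Chance gives that in about 1 of 20 groups of independent, normally distributed values. The groups here share the same livers and hold CPM of related genes, so that rate cannot be set against their number. Knockout 278 accounted for 4 of them, each time as the highest knockout. These were Trib3 (87.6 CPM, the other knockouts 10.6 to 17), Ppp1r15a (73.2 CPM, the others 50.2 to 51.2), Slc7a5 (27.3 CPM, the others 14.4 to 16.5) and Chac1 (2.25 CPM, the others 0 to 0.256). All 4 are ATF4 targets. Knockout 277 accounted for 2, as the lowest knockout for Ern1 (68.7 CPM, the others 81.0 to 82.7) and the highest for Dnajb11 (84.8 CPM, the others 64.8 to 68.0). Among controls, Aldh1l2 was high in control 282 (2.03 CPM, the others 0.831 to 0.909) and Dnajb9 was low in control 281 (32.4 CPM, the others 33.7 to 33.9).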

How the results depend on the processing

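No paired analysis was possible because the labels give no replicate number shared between the groups. The counts of 1 ATF4 target higher, 4 lower, 1 chaperone higher and 0 lower moved by more than 1.5 times in few settings. ATF4 targets higher were 2 in limma-voom, 3 without knockout 278 and control 282, 2 without knockouts 277 and 278, and 1 to 2 with single libraries left out. Chaperones lower were 1 with no low-count filter, 1 in DESeq2, 1 in limma-voom, 1 without knockouts 277 and 278, and 0 to 1 with single libraries left out, the gene each time being Calr. With the erythroid covariate, 0 ATF4 targets were lower, 0 chaperones were higher, 17 genes of all were higher and 17 lower, Myo5b was -1.03 (adjusted p = 0.713) and Slc7a5 was 0.41; the cause was not tested. With library size alone, 57.6% of all calls were higher in place of 44.8%, the median of all genes shifted from 0.0093 to 0.078, and that of the 16 ATF4 targets went from 0.037 to 0.11. The sign turned for 5 of 37 members with upper-quartile scaling and for 6 with library size alone, none of them called. For genes that were not called, the intervals given hold changes that 4 livers a side do not exclude, as for Hspa5 (-0.23 to 0.34).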

Other observations

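Cytosolic heat shock genes, which answer misfolding outside the ER, changed in both directions. Of 12 genes, 5 rose and 1 fell (50.0%, beside 20.7% of all genes called), with a median log2 fold change of 0.19. Without knockout 277 or control 281, 2 rose, and without knockout 276 or control 282, 3 rose. Hspa8, the constitutive Hsp70, rose by 0.36 log2 units (SE 0.09, adjusted p = 0.00850), from 746 ± 44.6 to 956 ± 99.6 CPM (SD, n = 4). The stress-inducible Hspa1b was at 9.57, 7.48, 10.4 and 4.49 CPM in knockouts and 2.34, 2.82, 0.772 and 1.61 CPM in controls (log2 fold change 2.09, SE 0.36, adjusted p = 6.20e-04), and its near-identical neighbour Hspa1a makes the split of reads between both uncertain. Hsp90aa1 fell by 0.39 log2 units (SE 0.08, adjusted p = 0.00271).

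Of 10 mitochondrial chaperones and proteases, 0 were called by edgeR, DESeq2 or limma-voom, and 1 was lower at an unadjusted p under 0.05. Hspd1, the mitochondrial Hsp60, was at 226 ± 15.2 and 256 ± 19.7 CPM (SD, n = 4; adjusted p = 0.147), and the protease genes Clpp (-0.31, SE 0.16) and Afg3l2 (-0.09, SE 0.08) did not pass the test. Of 20 cytosolic aminoacyl-tRNA synthetase genes, 0 rose in edgeR, DESeq2 and limma-voom, with 0 higher at an unadjusted p under 0.05. In edgeR 3 fell (15.0%, beside 20.7% of all genes called). They were Hars (-0.39, SE 0.09), Tars (-0.33, SE 0.08) and Vars (-0.27, SE 0.08), and 5 fell without knockout 278, against 2 without knockout 276, knockout 277, control 279, control 280 or control 281. Fgf21, a liver hormone that ATF4 raises, was picked after its values were seen. It was at 9.46, 15.1, 16.4 and 57.3 CPM in knockouts and 5.00, 6.30, 4.99 and 2.66 CPM in controls (log2 fold change 2.37, SE 0.67, adjusted p = 0.0541), with knockout 278 again far above the rest.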
